A study of Mus musculus with 96 samples.

Results

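The genes described here are 10 genes of the antioxidant defence and of the NRF2 response: Nfe2l2, Nqo1, Hmox1, Gclc, Gclm, Txnrd1, Srxn1, Sod1, Sod2 and Cat. They were chosen by name, as genes known for this role, with earlier results of these data known. Their counts were taken by symbol from a count table of 56748 genes. The table holds 96 libraries of polyadenylated RNA from 32 numbered mice, which gave their liver, skeletal muscle and cortex. Mice either ate ad libitum (AL) or were kept on intermittent fasting (IF), and each tissue has 8 mice per sex and diet. The male mice were C57BL/6. IF males went without food for 16 h of each day, between 16:00 and 8:00, while AL males always had food. Both diets began at 6 weeks of age and lasted 4 months. Male tissues were taken between 07:00 and 12:00, after perfusion with cold buffered saline. The paper places this at the end of the scheduled fast, yet food returned at 8:00. IF males taken later may have eaten, and the hour of each mouse is not in the sources used here. Lights came on at 07:00, so IF males had food in the light phase only. The females carry the same diet names, AL and IF, and their hours of fasting, strain, age and timing are not in the sources used here. In the IF males, long-term diet, the acute fasted or refed state and the hours of feeding therefore cannot be told apart. In whole tissue, fewer cells of a type and less RNA per cell cannot be told apart either.

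Nfe2l2 encodes NRF2, a transcription factor that is degraded through KEAP1 under resting conditions and accumulates when cells meet oxidants or electrophiles. With small MAF proteins it binds the antioxidant response element and drives genes for glutathione synthesis, thioredoxin recycling, quinone reduction and haem breakdown. The superoxide dismutases and catalase remove superoxide and hydrogen peroxide, and the liver is known for its abundant peroxisomal catalase.

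Total counts per library ran from 26097314 to 49838004, with a median of 36132954 over the 95 libraries used. Every gene of the 10 had counts in 100% of these libraries, and the lowest single count was 98, for Nqo1 in a cortex. All 10 passed the filter on low counts in each comparison. The labelled tissues carried their own markers. Summed hepatocyte markers lay between 41856 and 97351 counts per 1000000 counts of a library (CPM) in liver. Summed myofibre markers lay between 107274 and 137745 CPM in muscle, and summed neuron markers between 4923 and 7058 CPM in cortex. Some cortices also held the hepatocyte list at up to 4270.0 CPM, of which Ttr alone gave 4269 CPM.

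The cortex library of AL mouse 1, labelled male, was omitted. It had 213 CPM of Xist and no count of Ddx3y or Kdm5d. In the 47 other male libraries Xist stayed at or below 0.612 CPM and Ddx3y lay between 25.1 and 70.8 CPM, whereas the 48 female libraries had 36.8 to 1627 CPM of Xist. Of the other cortex libraries, that of female IF mouse 40 was most like it (Pearson r = 0.998 over 15859 genes, which are not independent replicates). The male AL cortex group therefore holds 7 mice, and the other 11 groups hold 8 each.

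By their positions on GRCm39, Nfe2l2 (ENSMUSG00000015839) lies on chromosome 2 at 75505857-75534985. The other genes on chromosome 2 are Srxn1 (ENSMUSG00000032802) at 151947436-151953296 and Cat (ENSMUSG00000027187) at 103284194-103315505. Chromosome 8 holds Nqo1 (ENSMUSG00000003849) at 108114857-108129838 and Hmox1 (ENSMUSG00000005413) at 75820249-75827217. Gclc (ENSMUSG00000032350) lies on chromosome 9 at 77661817-77701767, and Gclm (ENSMUSG00000028124) on chromosome 3 at 122039206-122064381. Txnrd1 (ENSMUSG00000020250) lies on chromosome 10 at 82669785-82733546. Sod1 (ENSMUSG00000022982) is on chromosome 16 at 90017642-90023217, and Sod2 (ENSMUSG00000006818) on chromosome 17 at 13225733-13258950. All are protein-coding. The span of Sod1 overlaps Scaf4 on the opposite strand, which reached 54.1 CPM. The span of Txnrd1 overlaps 3 annotated genes, the most abundant at 21.5 CPM, and that of Gclm overlaps 2, at up to 7.24 CPM. Counts shared between overlapping genes were not tested.

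Levels were first compared between genes in AL mice, as CPM per kilobase of gene length. That length is of the gene model, with 2613 bases for Cat, 3970 for Sod1 and 10008 for Sod2. Lengths of the transcripts expressed were not measured and may be shorter, so the order of genes holds only for these model lengths. In male liver Cat, the enzyme that splits hydrogen peroxide in peroxisomes, led with a median of 789 CPM per kilobase. Sod1, the cytosolic copper and zinc superoxide dismutase, followed at 316, and Gclc, the catalytic subunit of glutamate-cysteine ligase, at 107. The ranges of these 3 did not overlap each other, nor that of Gclm, the ligase's modifier subunit, at 29.9. Below them Nfe2l2 (23.3), Sod2 (15.3), Txnrd1 (12.4) and Srxn1 (10.1) each overlapped its neighbour. Hmox1 (4.50) and Nqo1 (2.79) stood lowest, and their ranges overlapped. The highest median was 283 times the lowest in male liver and 94.2 times in female liver.

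The order differed in the other tissues, where Sod1 led. In male muscle Sod1 had a median of 57.2 CPM per kilobase, ahead of Sod2, the mitochondrial manganese enzyme, at 26.2. Cat (19.9) overlapped both Sod2 and Nqo1 (18.1) there, and Gclc stood lowest at 1.90. In female muscle Cat had 32.8 and overlapped Sod1 at 38.7. In cortex Srxn1, the sulfiredoxin that restores overoxidised peroxiredoxins, came directly after Sod1, with 32.1 in males and 32.8 in females. Nqo1, a quinone reductase, was lowest in the cortex of both sexes at 2.54 in males and 2.32 in females.

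**Figure D1:**
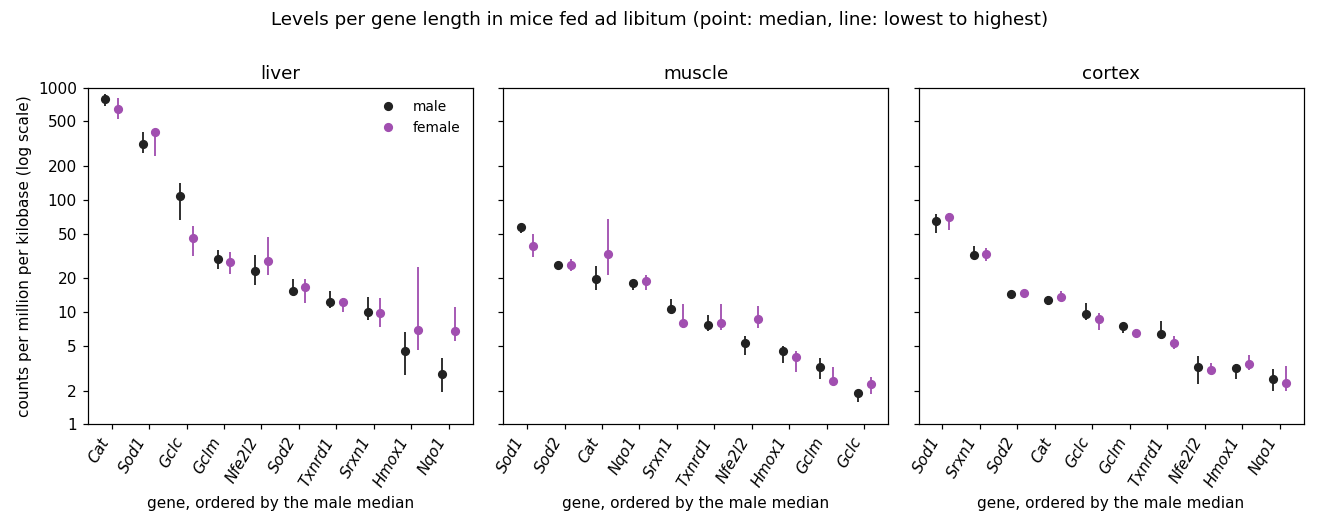
Levels of the 10 genes in AL mice, in CPM per kilobase on a log axis, for liver, muscle and cortex, with points at the median and lines from the lowest to the highest mouse (8 mice, 7 in male cortex). By this measure, which rests on gene-model lengths, Cat led in liver, with medians of 789 in males and 642 in females. Sod1 led in muscle and cortex.

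The same gene also differed between tissues, here as plain CPM in AL mice. Cat had a median of 2063 CPM in male liver, 39.8 times that of muscle (51.9) and 61.1 times that of cortex (33.8). Gclc was 11.1 times as high in male liver as in cortex and 56.5 times as high as in muscle. Nfe2l2 fell in the order liver, muscle, cortex in both sexes, with male medians of 88.6, 20.1 and 12.4 CPM. None of these ranges overlapped between tissues. Gclm and Sod1 were likewise highest in liver, by 4.02 and 4.89 times over the cortex of males. Srxn1 was highest in cortex, at 3.0 times its level in male muscle and 3.32 times its level in female liver. Sod2 and Nqo1 were highest in muscle, with male medians of 262 and 28.1 CPM. Hmox1, the inducible haem oxygenase, had male medians of 7.89 in muscle, 7.89 in liver and 5.60 in cortex. The range of liver overlapped both others, whereas those of muscle and cortex did not overlap. In females its liver median of 12.2 was 1.76 times that of muscle (6.91) and 2.0 times that of cortex (6.08), and its liver range overlapped neither.

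AL males and AL females differed without overlap in 4 of the 30 pairs of gene and tissue. The share of all genes without such overlap was not counted, so this count is not read as a result about the listed genes. Nqo1 in liver had a median of 4.33 CPM in males and 10.6 in females. Gclc in liver went the other way, with 405 CPM in males and 174 in females. In muscle, Nfe2l2 had 20.1 CPM in males and 33.1 in females, and Sod1 had 227 in males and 154 in females. These are descriptions. The sexes were not tested against each other in AL mice, and strain, age and timing of the females are unknown here.

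Of the 10 genes, Sod2 had the lowest median spread between mice of a group, and the widest single group was that of Hmox1 in female AL liver. The coefficient of variation over the mice of a group had a median of 18.6% for Nqo1 and 17.5% for Hmox1 over the 12 groups, and that of Hmox1 reached 71.7% in female AL liver, where mouse 28 stood far above the others. For Sod2 the median was 6.21% and the lowest value 2.11%. Cat was even within most groups, with a median of 11.9%, yet reached 43.8% in female AL muscle. The median over the 10 genes was 20.5% in male IF liver and 8.60% in male IF cortex.

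**Figure D2:**
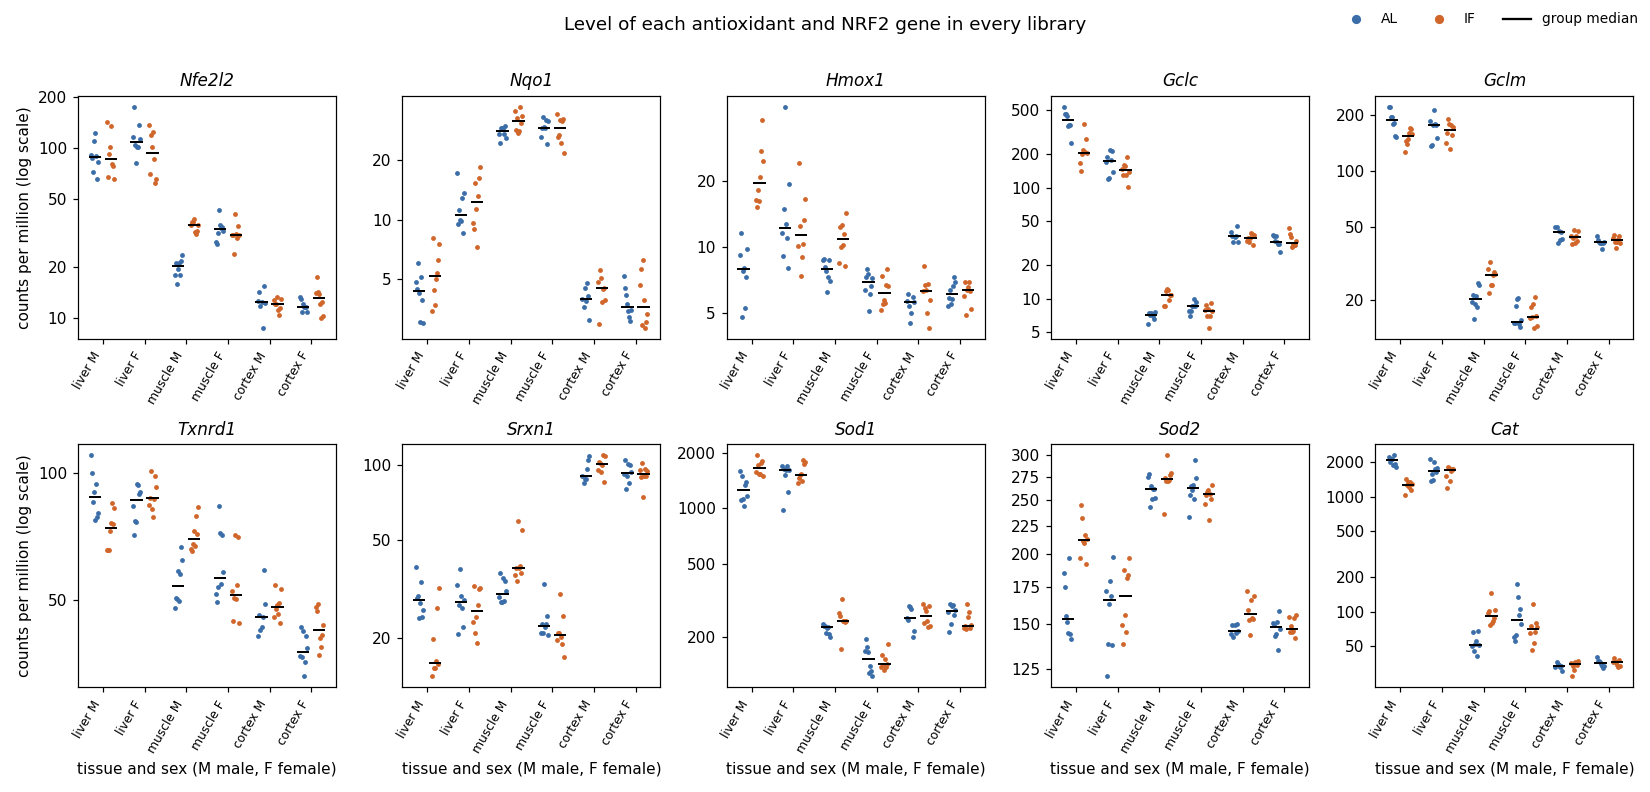
CPM of each gene in every library used, on a log axis, by tissue and sex (M, F), with AL in blue, IF in orange and bars at the group median. In male liver the 8 IF values of Hmox1 lay at 15.2 CPM or more and the 8 AL values at 11.5 or less, and in male muscle the IF values of Nfe2l2 lay at 31.3 or more and the AL values at 23.5 or less.

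The comparison of IF with AL within each tissue and sex asks how the IF diet went with the mRNA of these genes. In the liver of males, IF livers carried more Hmox1 and Sod2 mRNA and less Cat, Gclc, Gclm, Txnrd1 and Srxn1 mRNA than AL livers. Each comparison used edgeR's quasi-likelihood test over all genes with Benjamini-Hochberg adjustment, and a gene is called at an adjusted p under 0.05. In this comparison 7 of the 10 genes were called, 2 higher and 5 lower, beside 44.6% of the 16204 genes tested. Their median log2 fold change was -0.20, against 0.06 over all genes. CPM of 2 of the 10, Hmox1 and Cat, did not overlap between the diets, beside 14.6% of all genes tested. With so many genes called in this tissue, neither count is read as a result about the 10 genes as a list. Erythrocyte markers were also higher in these IF livers. With their score as a covariate, described below, 4 of the 10 were called, beside 24.8% of all genes tested. The calls of Gclm, Txnrd1 and Sod2 were the ones lost, at the folds given there.

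Nfe2l2 itself had a lowest, median and highest level of 65.8, 88.6 and 122 CPM in AL livers of males and of 66.1, 86.6 and 142 in IF livers. The groups overlapped almost fully, and the fitted log2 fold change of -0.02 ± 0.14 (SE, 8 mice per diet; 95% interval -0.30 to 0.25) had an adjusted p of 0.908.

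Hmox1 breaks haem down to biliverdin, iron and carbon monoxide. Its lowest, median and highest levels were 4.78, 7.89 and 11.5 CPM in AL livers of males and 15.2, 19.6 and 38.3 CPM in IF livers. Every IF liver lay above every AL liver, with mouse 15 highest. The log2 fold change was 1.40 ± 0.19 (SE, 8 mice per diet), a 2.64-fold rise with an adjusted p of 3.43e-06.

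Both subunits of glutamate-cysteine ligase, which makes the first committed step of glutathione synthesis, were lower. Gclc had 252, 405 and 535 CPM in AL livers of males and 140, 206 and 375 CPM in IF livers (lowest, median, highest). The ranges overlapped through IF mouse 13 and AL mouse 8, and 6 of 8 IF livers lay below every AL liver. Gclc fell by 0.96 on the log2 scale (SE 0.16, 8 mice per diet, adjusted p = 3.19e-05). Gclm had 154, 188 and 223 CPM in AL livers and 127, 154 and 172 in IF livers. All 8 IF livers lay below the AL median, with overlap between the groups, and Gclm fell by 0.39 on the log2 scale (SE 0.10, adjusted p = 0.00317), a call lost with the erythrocyte covariate described below at a like fold (log2 -0.37).

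Txnrd1, the cytosolic thioredoxin reductase, had 77.3, 87.9 and 110 CPM in AL livers of males and 65.6, 74.2 and 85.1 in IF livers. The groups overlapped, with 6 of 8 IF livers below every AL liver, and Txnrd1 fell by 0.38 on the log2 scale (SE 0.10, adjusted p = 0.00370), a call likewise lost with that covariate (log2 -0.40). Srxn1 had 24.0, 28.5 and 38.7 CPM in AL livers and 14, 15.9 and 31.9 in IF livers. IF mice 14 and 16 lay among the AL livers and the other 6 IF livers below all of them, and Srxn1 fell by 0.69 on the log2 scale (SE 0.17, adjusted p = 0.00173).

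Among the enzymes that act on superoxide and peroxide, Cat had 1805, 2063 and 2285 CPM in AL livers of males and 1023, 1268 and 1434 in IF livers. The groups did not overlap, and all 8 IF livers lay below all AL livers. Cat fell by 0.80 on the log2 scale (SE 0.11, 8 mice per diet, adjusted p = 3.44e-06), to 0.575 of the AL level. Sod2 had 141, 153 and 197 CPM in AL livers and 192, 212 and 245 in IF livers. IF livers lay above the AL median in 8 of 8 mice, with slight overlap, and the log2 fold change was 0.31 ± 0.11 (SE, adjusted p = 0.0216). That call was lost without AL mouse 2 and IF mouse 10 (log2 0.26, adjusted p = 0.0633), and its adjusted p ran from 0.0174 to 0.236 over 10 fits. Sod1 had 1032, 1253 and 1589 CPM in AL livers and 1491, 1652 and 1941 in IF livers. All 8 IF livers lay above the AL median, yet the log2 fold change of 0.29 ± 0.13 was not called (adjusted p = 0.0701), and without AL mouse 2 and IF mouse 10 it was 0.19. Nqo1 ranged from 3.0 to 6.03 CPM in AL livers and from 3.43 to 8.10 in IF livers, with a log2 fold change of 0.25 ± 0.22 and an adjusted p of 0.358, and with the erythrocyte covariate it was -0.01.

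CPM is a share of all counts, and one large share moved with diet in this tissue. The 37 genes of the mitochondrial genome took a median of 20.6% of counts in AL livers of males (14.6% to 25.1%) and 10.7% in IF livers (8.76% to 13.9%). The fitted changes are scaled by TMM, whose factors had medians of 0.951 in AL and 1.03 in IF livers. The part of this share in the results was not tested.

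In the liver of females, none of the 10 genes was called with edgeR, beside 0% of 15938 genes tested. At an unadjusted p under 0.05 stood 0 of the 10 and 919 of all genes, and DESeq2 called 0 of the 10 and 4 of all genes. No gene of the 10 was free of overlap between the diets, beside 0.0188% of all genes. Log2 fold changes of the 10 ran from -0.30 to 0.16, with a median of -0.03. Hmox1 had 8.02, 12.2 and 44.0 CPM in AL livers of females and 7.35, 11.4 and 24.4 in IF livers. The groups overlapped, and AL mouse 28 stood far above the others. Without it and IF mouse 34, log2 -0.30 became -0.10. Cat had 1361, 1677 and 2136 CPM in AL livers and 1193, 1704 and 1800.0 in IF livers, and Gclc had 119, 174 and 219 in AL livers and 102, 143 and 189 in IF livers. Both overlapped, with adjusted p of 0.973 for Cat and 0.882 for Gclc. The 95% interval of the log2 fold change was -0.32 to 0.22 for Cat and -0.46 to 0.09 for Gclc in females, whereas that of males was -1.02 to -0.58 for Cat and -1.27 to -0.64 for Gclc. The other 7 genes stood at -0.24 ± 0.17 for Nfe2l2, 0.16 ± 0.20 for Nqo1, -0.01 ± 0.12 for Gclm, 0.11 ± 0.10 for Txnrd1, -0.06 ± 0.14 for Srxn1, 0.12 ± 0.14 for Sod1 and 0.11 ± 0.13 for Sod2 (log2 fold change ± SE), with the lowest adjusted p at 0.872, for Nfe2l2.

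The difference of the diet response between the sexes was tested as an interaction. In liver it was called for 6 of the 10 genes, beside 23.7% of the 17658 genes tested, and the value is the female minus the male log2 response. It was -1.67 ± 0.40 (SE, 8 mice per sex and diet) for Hmox1, with an adjusted p of 0.00262. For Cat the difference was 0.79 ± 0.18 (adjusted p = 0.000996) and for Gclc 0.81 ± 0.22 (adjusted p = 0.00561). Txnrd1 differed by 0.53 ± 0.14 (adjusted p = 0.00445) and Srxn1 by 0.67 ± 0.23 (adjusted p = 0.0294). The diet response of these 5 genes thus differed between male and female livers. In males the fall of Cat, Gclc, Txnrd1 and Srxn1 and the rise of Hmox1 were called. Hours of fasting, strain, age and timing of the females are unknown here, so sex cannot be told apart from any difference in these. The male call of Txnrd1 was lost with the erythrocyte covariate at a like fold, as given above. The interaction was not fitted with that covariate. Gclm differed by 0.42 ± 0.15 (adjusted p = 0.0415), a call that was lost without male IF mice 9, 10 and 16 (adjusted p = 0.106) and without female AL mouse 28 and IF mouse 34 (adjusted p = 0.0579), both chosen after seeing the data. The call was also lost with the replicate number fitted as a block, as given below. The adjusted p of Gclm ran from 0.0377 to 0.106 over 6 fits. The interaction was not called for Sod1 (-0.14 ± 0.19), Sod2 (-0.18 ± 0.17), Nfe2l2 (-0.19 ± 0.23) or Nqo1 (-0.05 ± 0.30).

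Markers of other cells moved with diet in male liver. The 5 erythrocyte markers, all higher on average in IF livers, summed to 362 to 956 CPM in AL livers (median 569) and 667 to 6879 in IF livers (median 2070.0), with Hba-a1 most abundant and IF mouse 9 highest. Their mean log2(CPM + 1) was 1.63 higher in IF livers of males, above the AL median in 8 of 8 (exact permutation test, two-sided, adjusted p = 0.0220 over 66 tests of marker lists). With this score as a covariate, 4 of the 10 genes were called in place of 7, and 4013 genes in place of 7234, or 24.8% of those tested. Gclm (log2 -0.37, adjusted p = 0.0725), Txnrd1 (log2 -0.40, adjusted p = 0.0516) and Sod2 (log2 0.26, adjusted p = 0.236) were the ones lost, whereas the values of Hmox1, Cat, Gclc and Srxn1 stayed past the threshold. Over 10 fits, the reported one included, the adjusted p of Gclm ran from 0.000199 to 0.0725 and that of Txnrd1 from 0.000415 to 0.0516.

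Hmox1 is known to be abundant in macrophages that take up red cells, so the 7 macrophage and Kupffer cell markers are given beside it. They summed to 149 to 281 CPM in AL livers of males and 168 to 683 in IF livers, where mouse 16 stood alone at the top, and Clec4f was most abundant. All 7 markers were higher on average in IF livers, and their score lay above the AL median in 8 of 8. The score differed by 0.40, which was not called (exact permutation test, adjusted p = 0.363). With this score as a covariate, or without IF mice 9, 10 and 16, both chosen after seeing the data, 7 of the 10 genes were called in male liver, beside 41.2% and 40.1% of all genes tested, and the log2 fold change of Hmox1 stayed between 1.36 and 1.63 over 10 fits. In females AL mouse 28, highest in Hmox1, also had the highest macrophage sum (1018 CPM; the 7 other AL livers 247 to 423), and IF mouse 34, highest in Hmox1 among IF livers, the highest of its group (510.1 CPM). Among the 4 endothelial markers Kdr was most abundant. They summed to 53.2 to 71.8 CPM in AL livers of males and 71.2 to 134 in IF livers, and their score was 0.52 higher (exact permutation test, adjusted p = 0.00769). The adipocyte list was 0.62 lower (exact permutation test, adjusted p = 0.00769), on sums of 17.0 to 40.8 CPM in AL and 4.36 to 17.8 in IF livers. Cfd was its most abundant gene, and Adipoq, Plin1 and Lep were near 0, under 0.1 CPM. Beyond these covariates and left-out mice, the part of other cells in the liver results was not tested.

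**Figure D3:**
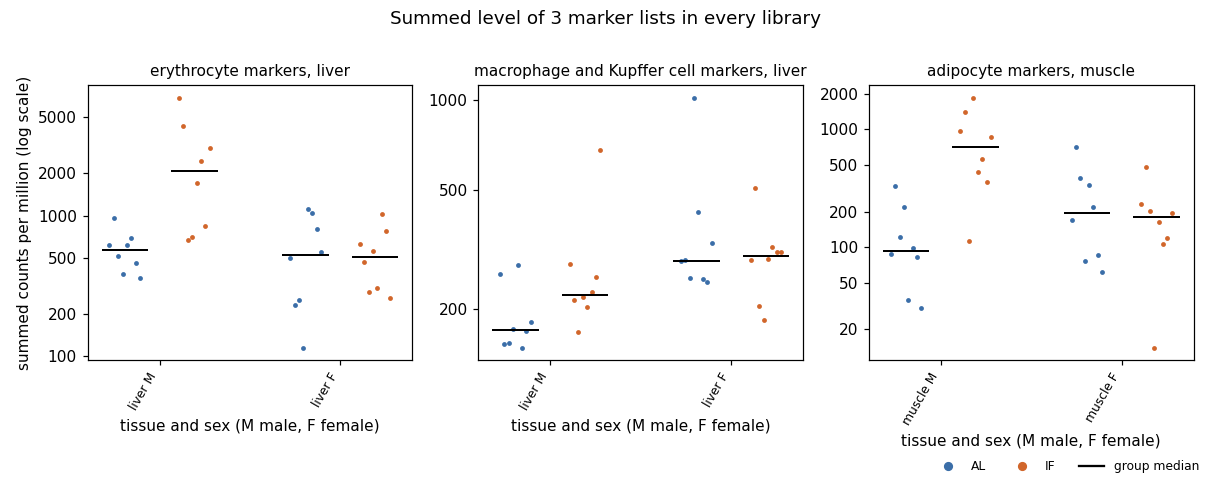
Summed CPM of the erythrocyte and macrophage markers in liver and of the adipocyte markers in muscle, per library on a log axis, with AL in blue, IF in orange and bars at the group median. Erythrocyte sums in male liver had medians of 569 in AL and 2070.0 in IF, and adipocyte sums in male muscle 93.2 in AL and 714 in IF.

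In the muscle of males, 7 of the 10 genes were higher in IF mice: Nfe2l2, Cat, Gclc, Gclm, Hmox1, Srxn1 and Txnrd1. None was lower. The calls of Hmox1 and Srxn1 were lost with the adipocyte covariate described below, at log2 0.24 and 0.21. The 7 calls stand beside 23% of the 15025 genes tested, where 1726 genes were higher and 1737 lower. The median log2 fold change of the 10 was 0.34, against 0.01 over all genes tested. Nfe2l2, Cat and Gclc, 3 of the 10, did not overlap between the diets, beside 4.17% of all genes. Sod1, Sod2 and Nqo1 were not called.

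Nfe2l2 had 15.9, 20.1 and 23.5 CPM in AL muscles of males and 31.3, 35.3 and 38.1 in IF muscles (lowest, median, highest). All 8 IF muscles lay above all AL muscles. The log2 fold change was 0.74 ± 0.07 (SE, 8 mice per diet), 1.67-fold, with an adjusted p of 2.61e-07.

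Of the glutathione genes, Gclc had 5.89, 7.17 and 7.53 CPM in AL muscles of males and 8.58, 10.8 and 12.2 in IF muscles. The groups did not overlap, and the log2 fold change was 0.51 ± 0.09 (SE, adjusted p = 0.000252). Gclm had 15.8, 20.3 and 24.6 CPM in AL muscles and 21.9, 27.5 and 32.3 in IF muscles. The groups overlapped, with 8 of 8 IF muscles above the AL median, and the log2 fold change was 0.33 ± 0.09 (SE, adjusted p = 0.0124).

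Txnrd1 had 47.9, 54.1 and 66.9 CPM in AL muscles of males and 65.4, 69.7 and 82.9 in IF muscles. Overlap was slight, with 6 of 8 IF muscles above every AL muscle, and the log2 fold change was 0.30 ± 0.07 (SE, adjusted p = 0.00307). Srxn1 had 27.8, 30.2 and 36.6 CPM in AL muscles and 34.1, 38.4 and 59.7 in IF muscles. IF mice 12 and 16 stood highest, 8 of 8 IF muscles lay above the AL median, and the log2 fold change was 0.36 ± 0.10 (SE, adjusted p = 0.0131). Hmox1 had 6.20, 7.89 and 8.80 CPM in AL muscles and 8.14, 10.9 and 14.3 in IF muscles. The groups overlapped, with 6 of 8 IF muscles above every AL muscle, and the log2 fold change was 0.41 ± 0.11 (SE, adjusted p = 0.00813).

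Cat had 41.6, 51.9 and 67.9 CPM in AL muscles of males and 76.6, 92.7 and 146 in IF muscles. The groups did not overlap, and mouse 12 stood highest. The log2 fold change was 0.77 ± 0.12 (SE, 8 mice per diet, adjusted p = 0.000118), a 1.70-fold rise, in contrast to the fall in male liver. Sod1 ranged from 200.1 to 237 CPM in AL muscles and from 174 to 323 in IF muscles (log2 0.10 ± 0.08, adjusted p = 0.388, and -0.09 with the adipocyte covariate). Sod2 ranged from 242 to 277 in AL and from 236 to 300.1 in IF muscles (log2 -0.01 ± 0.05, adjusted p = 0.907), with a 95% interval of -0.11 to 0.09. Nqo1 ranged from 24.5 to 29.8 in AL and from 27.6 to 37.5 in IF muscles (log2 0.13 ± 0.07, adjusted p = 0.218).

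In the muscle of females, edgeR called 0 of the 10 genes, beside 0.00653% of the 15308 genes tested, which is 1 gene. The unadjusted p was under 0.05 for 0 of the 10 and 1644 of all genes, and DESeq2 called 0 of the 10 and 82 of all genes. None of the 10 was free of overlap, beside 0.0915% of all genes. Nfe2l2 had 27.2, 33.1 and 42.9 CPM in AL muscles of females and 23.8, 30.8 and 40.7 in IF muscles. The groups overlapped broadly, both near the level of IF males, and the log2 fold change was 0.00 ± 0.09 with a 95% interval of -0.18 to 0.18. Cat had 56.0, 85.7 and 176 CPM in AL muscles and 46.4, 70.4 and 116 in IF muscles, with AL mice 28 and 29 and IF mouse 36 highest. Its log2 fold change of -0.33 ± 0.23 was not called (adjusted p = 0.630) and shrank to -0.03 without AL mice 28 and 29, a choice made after seeing the data. Values of the remaining 8 were 0.04 ± 0.09 for Nqo1, -0.04 ± 0.11 for Hmox1, -0.08 ± 0.09 for Gclc, 0.09 ± 0.09 for Gclm, -0.10 ± 0.12 for Txnrd1, -0.06 ± 0.11 for Srxn1, 0.02 ± 0.10 for Sod1 and 0.02 ± 0.06 for Sod2 (log2 fold change ± SE), with the lowest adjusted p at 0.764, for Gclm.

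The interaction of sex and diet in muscle was called for 3 of the 10 genes, beside 14.2% of the 16346 genes tested. The female minus male log2 response was -0.72 ± 0.12 for Nfe2l2 (SE, adjusted p = 5.97e-05). It was -0.58 ± 0.12 for Gclc (adjusted p = 0.00130) and -1.07 ± 0.26 for Cat (adjusted p = 0.00595). The rise of these 3 genes thus differed between the sexes, which may also differ in strain, age and hours, as in liver. For Hmox1 (-0.43 ± 0.15, adjusted p = 0.0536) and Txnrd1 (-0.38 ± 0.14, adjusted p = 0.0649) it was not called, although both passed with a filter of at least 10 counts in every library (adjusted p = 0.0408 for Hmox1 and 0.0441 for Txnrd1), under which 19.3% of all genes tested were called. Over 6 fits the adjusted p ran from 0.0329 to 0.0703 for Hmox1 and from 0.018 to 0.186 for Txnrd1. Srxn1 (-0.40 ± 0.15, adjusted p = 0.0738) and Gclm (-0.22 ± 0.13, adjusted p = 0.285) were not called.

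Adipocyte markers moved with diet in male muscle. The 5 markers, of which 4 were higher on average in IF mice, summed to 30.1 to 332 CPM in AL muscles (median 93.2) and 112 to 1860.0 in IF muscles (median 714), with Cfd most abundant and mouse 12 highest. None of the 5 was near 0. Their score was 1.85 higher in IF muscles but was not called (exact permutation test, adjusted p = 0.0731), whereas as log2 of summed CPM the list was called, at 2.69 (adjusted p = 0.0205). With this score as a covariate, chosen after seeing the data, 5 of the 10 genes were called, beside 20.9% of all genes tested. Hmox1 (log2 0.24, adjusted p = 0.22) and Srxn1 (log2 0.21, adjusted p = 0.258) were lost, whereas without IF mice 9, 10 and 12, likewise a later choice, all 7 calls held, beside 3876 of 15536 genes. Over 11 fits the adjusted p ran from 0.00254 to 0.22 for Hmox1 and from 0.00559 to 0.258 for Srxn1. Over the same fits the log2 fold change ran from 0.69 to 0.78 for Nfe2l2, from 0.50 to 0.58 for Gclc and from 0.52 to 0.81 for Cat. The 5 myofibre markers had a score 0.11 lower in IF muscles (exact permutation test, adjusted p = 0.00769), on sums of 119241 to 127507 CPM in AL and 107274 to 137745 in IF muscles, with Acta1 most abundant, a call lost as log2 of summed CPM (-0.0364, adjusted p = 0.704). The astrocyte list was 0.57 higher (exact permutation test, adjusted p = 0.00769), on sums of 13.1 to 24.8 CPM in AL and 16.7 to 34 in IF muscles. Aqp4, which muscle fibres also express, was its most abundant gene, and Gfap was near 0. The part of the myofibre and astrocyte lists in the muscle results was not tested.

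In the cortex of males edgeR called 0 of the 10 genes, beside 7.21% of the 18462 genes tested. The unadjusted p was under 0.05 for 1 of the 10 and 4400.0 of all genes, and DESeq2 called 1 of the 10, Sod2, and 2187 genes in all. No gene of the 10 was free of overlap, beside 1.01% of all genes. Log2 fold changes ran from -0.07 to 0.19. Sod2 had 143, 146 and 150.3 CPM in the 7 AL cortices of males and 144, 156 and 172 in the 8 IF cortices. IF mouse 12 lay among the AL mice and the other 7 IF mice above them. The log2 fold change was 0.12 ± 0.05 (SE, adjusted p = 0.108 in edgeR and 0.0366 in DESeq2), and the adjusted p ran from 0.0366 to 0.309 over 9 fits. Nfe2l2 ranged from 8.71 to 15.5 CPM in AL and from 10.3 to 13.3 in IF cortices, and Cat from 30.5 to 36.5 in AL and from 27.5 to 37.2 in IF cortices. The 95% interval of the log2 fold change was -0.24 to 0.15 for Nfe2l2 and -0.10 to 0.15 for Cat. For the other genes the values were 0.15 ± 0.14 for Nqo1, 0.19 ± 0.12 for Hmox1, -0.07 ± 0.07 for Gclc, -0.05 ± 0.06 for Gclm, 0.07 ± 0.07 for Txnrd1, 0.09 ± 0.07 for Srxn1 and 0.05 ± 0.10 for Sod1 (log2 fold change ± SE), with the lowest adjusted p at 0.364, for Hmox1.

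In the cortex of females edgeR called 0 of the 10 genes, beside 0.0109% of 18403 genes, which is 2 genes. At an unadjusted p under 0.05 stood 1 of the 10 and 2069 of all genes, and DESeq2 called 0 of the 10 and 61 of all genes. None of the 10 was free of overlap, beside 0.0435% of all genes. Txnrd1 had 33, 37.7 and 43.2 CPM in AL cortices and 37, 42.5 and 49.0 in IF cortices. The groups overlapped, with 7 of 8 IF mice above the AL median, and the log2 fold change was 0.16 ± 0.06 (SE, adjusted p = 0.382). The libraries of AL mouse 26 and IF mouse 36 were least like their groups. Without both, a choice made after seeing the data, 1193 genes were called, and Txnrd1 was 1 of them (log2 0.21, adjusted p = 0.0434). Without AL mouse 26 alone 254 genes were called, none of them among the 10, and without IF mouse 36 alone 1 gene was called. The adjusted p of Txnrd1 ran from 0.0434 to 0.403 over 10 fits. Sod1 had 215, 278 and 304 CPM in AL cortices of females and 222, 232 and 305 in IF cortices. Of the IF mice 7 of 8 lay below the AL median, and the log2 fold change of -0.14 ± 0.09 was not called (SE, adjusted p = 0.539). Without AL mouse 26 and IF mouse 36 it was -0.25 (adjusted p = 0.0504), still not called. The 8 genes not yet given had values of 0.13 ± 0.09 for Nfe2l2, 0.08 ± 0.17 for Nqo1, -0.02 ± 0.10 for Hmox1, 0.03 ± 0.07 for Gclc, 0.03 ± 0.04 for Gclm, -0.03 ± 0.06 for Srxn1, 0.01 ± 0.04 for Sod2 and 0.00 ± 0.05 for Cat (log2 fold change ± SE), with the lowest adjusted p at 0.557, for Nfe2l2. The interaction of sex and diet in cortex was called for 0 of the 10 genes with edgeR, beside 2.03% of 19547 genes. At an unadjusted p under 0.05 stood 0 of the 10 and 3007 of all genes, and this test was not run in DESeq2.

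Of the marker lists, the oligodendrocyte list was 0.44 higher in IF cortices of males (exact permutation test, adjusted p = 0.0185). Its 4 genes, with Mbp most abundant and none near 0, summed to 3652 to 5693 CPM in AL and 4943 to 8125 in IF cortices. In female cortex the myofibre list was 0.14 lower in IF mice (exact permutation test, adjusted p = 0.0220), at sums of only 18.5 to 31.3 CPM in AL and 18.2 to 25.4 in IF cortices, with Acta1 most abundant and Ckm and Tnnt3 near 0, and was not called as log2 of summed CPM (adjusted p = 0.296). Their part in the cortex values was not tested. Of the 66 tests of 11 marker lists, 7 were called. The hepatocyte, neuron, macrophage, microglia and neutrophil lists were called in none of the 6 pairs of tissue and sex, although the neuron list was called in male liver as log2 of summed CPM (0.54). The macrophage and microglia lists share Csf1r.

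**Figure D4:**
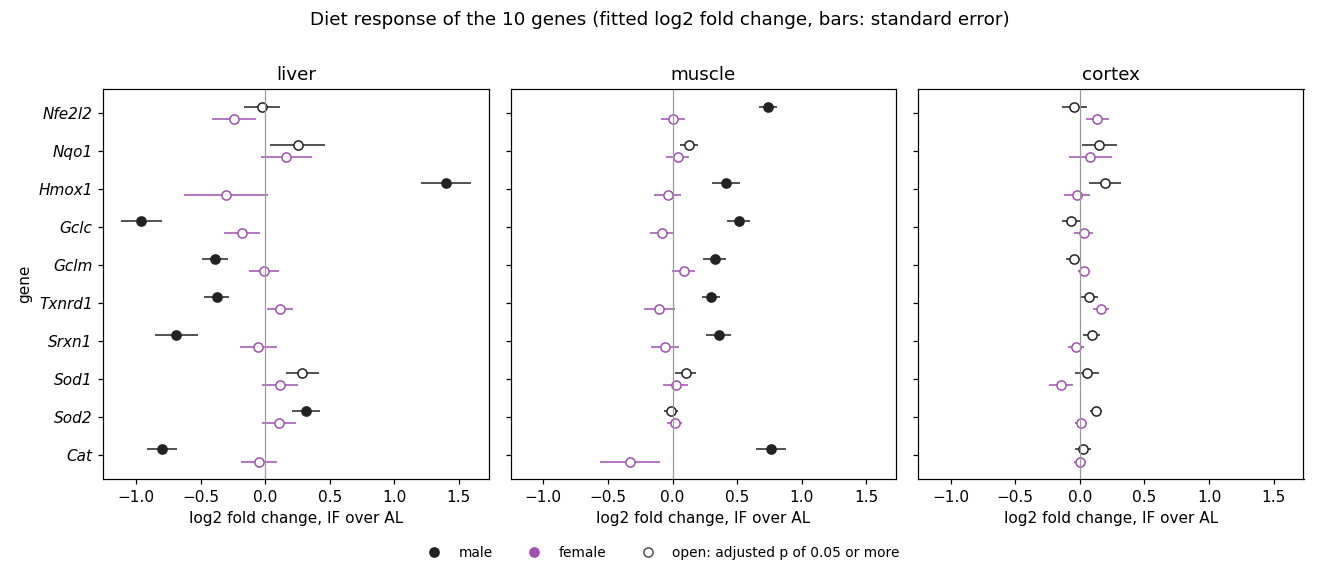
Fitted log2 fold change of IF over AL for each gene and tissue in males (black) and females (purple), with bars for the standard error and filled points for an adjusted p under 0.05. In males Cat was at -0.80 in liver and 0.77 in muscle and Gclc at -0.96 and 0.51, whereas cortex values lay between -0.14 and 0.19 in both sexes.

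Whether the diet response differed among the 3 tissues was tested as an interaction within each sex. In males it was called for 7 of the 10 genes, beside 34% of the 21608 genes tested. The adjusted p was 5.73e-09 for Cat, with log2 responses of -0.80 in liver, 0.77 in muscle and 0.03 in cortex (8 mice per diet, 7 in AL cortex). Gclc had 1.96e-08, with -0.96, 0.51 and -0.07 in the same order. Txnrd1 had 4.59e-06, with -0.38, 0.30 and 0.07, and Srxn1 had 5.98e-06, with -0.69, 0.36 and 0.09. Gclm had 0.000128, with -0.39, 0.33 and -0.05. These 5 genes were called lower in liver and higher in muscle of the same males, and the direction was the same in every fit. The liver calls of Gclm and Txnrd1 were lost with the erythrocyte covariate at log2 -0.37 and -0.40, and the muscle call of Srxn1 with the adipocyte covariate at 0.21. Nfe2l2 had 0.000108, with -0.02, 0.74 and -0.05, and Hmox1 had 0.000282, with 1.40, 0.41 and 0.19. The interaction was not called for Sod2 (adjusted p = 0.0714), Sod1 (0.488) or Nqo1 (0.973), although Sod2 passed with RLE scaling (adjusted p = 0.0493). In females edgeR called 0 of the 10, beside 0% of 21292 genes. At an unadjusted p under 0.05 stood 0 of the 10 and 1732 of all genes, again with no run in DESeq2. The lowest adjusted p of the 10 was 0.699, for Nfe2l2.

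A further 53 genes that work with these 10 were read as 6 lists. In male liver 37 of the 52 tested were called, 27 higher and 10 lower, beside 44.6% of all genes. With the score of the erythrocyte markers, which were higher in these livers, as a covariate, 24 were called, 17 higher and 7 lower, beside 24.8% of all genes. That count was added after seeing the data, and these lists were run under no other alternative. The list of NRF2 regulators and partners had 6 of 8 called, 5 higher and 1 lower. Genes of glutathione synthesis and use had 5 of 11 higher and 1 lower, and thioredoxins and peroxiredoxins 7 of 10 higher and 1 lower. The other NRF2 targets had 8 of 13 higher and 4 lower, with a median log2 fold change of 0.61 against 0.06 over all genes. NADPH supply had 0 of 6 higher and 2 lower, and haem breakdown partners and extracellular SOD 2 of 4 higher and 1 lower. No gene of these lists was called in the same direction in both sexes, so those named here were chosen after their values were seen. Gpx1, the cytosolic glutathione peroxidase, had 189, 279 and 440 CPM in AL livers of males and 868, 1157 and 1570.0 in IF livers. The groups did not overlap, and its log2 fold change was 1.89 ± 0.17 (SE, adjusted p = 3.07e-09). Maff, a small MAF partner of NRF2, had 0.806, 1.45 and 2.69 CPM in AL livers and 6.52, 9.25 and 18.7 in IF livers. It too was free of overlap, and it rose by 2.64 ± 0.25 on the log2 scale (adjusted p = 1.1e-08). Gstm1, a glutathione transferase, had 2327, 2681 and 3229 CPM in AL livers and 1151, 1326 and 2021 in IF livers, and fell by 1.01 on the log2 scale (SE 0.14, adjusted p = 2.61e-06) without overlap. The calls of all 3 held with the erythrocyte covariate, at log2 1.59, 2.94 and -1.16.

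In male muscle 14 of 50 genes of these lists were called, 10 higher and 4 lower, beside 23% of all genes. NADPH supply had 4 of 6 higher: Tkt (log2 2.50 ± 0.53), G6pdx (1.04 ± 0.35), Idh1 (0.60 ± 0.14) and Me1 (0.32 ± 0.07), with adjusted p of 0.00375, 0.0427, 0.00402 and 0.00199. The call of G6pdx was lost with the erythrocyte covariate (adjusted p = 0.0556). Tkt, the pentose phosphate enzyme transketolase, had 13.5, 19.9 and 31.5 CPM in AL muscles and 28.9, 67.1 and 418 in IF muscles. Overlap was slight, and the spread among IF muscles was wide, as was that of the adipocyte markers in the same muscles. These lists were not fitted with the adipocyte score, so its part in their values was not tested. Of the NRF2 regulators and partners 2 of 8 were called, Bach1 higher (0.43 ± 0.11, adjusted p = 0.00504) and Nfe2l1 lower (-0.32 ± 0.05, adjusted p = 5.74e-05). Genes of glutathione synthesis and use had 1 of 10 higher and 1 lower, thioredoxins and peroxiredoxins 2 of 10 higher and 1 lower, the other NRF2 targets 2 of 12 higher, and haem breakdown partners and extracellular SOD 1 of 4 lower.

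In male cortex 5 of 52 genes of these lists were called, beside 7.21% of all genes. NRF2 regulators and partners had 2 of 8 higher, Keap1, the adaptor through which NRF2 is degraded (0.25 ± 0.07, adjusted p = 0.0448), and Maff (0.84 ± 0.20, adjusted p = 0.0186). Of the other NRF2 targets Abcc4 was higher (0.44 ± 0.08, adjusted p = 0.00491). Slc7a11, the cystine transporter, was lower (-0.40 ± 0.11, adjusted p = 0.0293), and so was Idh1 (-0.22 ± 0.07, adjusted p = 0.0456). Thioredoxins and peroxiredoxins, and haem breakdown partners and extracellular SOD, had 0 called in male cortex. In females edgeR called 0 of the tested genes of these lists, 51 in liver, 50 in muscle and 52 in cortex. Of all genes tested it called 0%, 0.00653% and 0.0109%, in the same order. An unadjusted p under 0.05 was found for 4 of the list genes in liver, 4 in muscle and 6 in cortex. Over all genes it was found for 919 of 15938 in liver, 1644 of 15308 in muscle and 2069 of 18403 in cortex. These counts are not read as a result about the lists, and DESeq2 was not read for them.

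As 7 of the 10 genes were called higher in male muscle, the promoters of all 10 were looked up and searched for the core of the antioxidant response element. The RefSeq table of GRCm38.p6 promoters, 250 bases before to 50 after a gene's start, holds 10 entries for 8 of the 10 genes and none for Hmox1 and Gclc. Each entry was found unchanged in GRCm39, whose coordinates are given. The motif TGACNNNGC was searched on both strands and matched in 4071 of the 32851 promoters of the table, or 12.4%. It matched in 5 of the 10 entries, 1 each for Nfe2l2, Gclm, Srxn1, Sod1 and Txnrd1. The entries of Cat, Nqo1 and Sod2 and 2 of the 3 of Txnrd1 held no match in these 300 bases. Cat was called higher in male muscle without a match, and Sod1 held a match without a call there, so no link between motif and response is read from this. The 4 promoters printed are those with a match among the genes called there, chosen after the search. The sequences below run 5′ to 3′ on the strand of the gene, with the match in capitals, and lie at chr2:75534958-75535257 (minus strand) for Nfe2l2, chr3:122038956-122039255 (plus) for Gclm, chr2:151947194-151947493 (plus) for Srxn1 and chr10:82694790-82695089 (plus) for Txnrd1. The match of Nfe2l2 reads along the gene's strand and begins 240 bases before the start that its RefSeq entry uses. That start differs from the gene boundary given above. The matches of Gclm, Srxn1 and Txnrd1 read on the opposite strand. As printed, that of Gclm begins 134 bases and that of Txnrd1 92 bases before the entry's start. That of Srxn1 begins 28 bases after it. Only TGACNNNGC was searched, so near forms, such as tgagtcagc in Srxn1, are not marked. A match describes letters, and binding was not measured.
Nfe2l2: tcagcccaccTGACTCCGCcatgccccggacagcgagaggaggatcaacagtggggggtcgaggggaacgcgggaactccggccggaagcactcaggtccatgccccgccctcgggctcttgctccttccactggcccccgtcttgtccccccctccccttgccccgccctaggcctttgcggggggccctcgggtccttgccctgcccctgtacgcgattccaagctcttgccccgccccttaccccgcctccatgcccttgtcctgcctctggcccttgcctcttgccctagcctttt
Gclm: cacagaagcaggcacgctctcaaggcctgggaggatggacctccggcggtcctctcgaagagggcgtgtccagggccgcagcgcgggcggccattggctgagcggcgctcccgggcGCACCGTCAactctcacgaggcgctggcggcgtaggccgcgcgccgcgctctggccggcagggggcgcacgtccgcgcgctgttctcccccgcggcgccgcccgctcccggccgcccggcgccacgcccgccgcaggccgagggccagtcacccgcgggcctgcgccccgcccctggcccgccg
Srxn1: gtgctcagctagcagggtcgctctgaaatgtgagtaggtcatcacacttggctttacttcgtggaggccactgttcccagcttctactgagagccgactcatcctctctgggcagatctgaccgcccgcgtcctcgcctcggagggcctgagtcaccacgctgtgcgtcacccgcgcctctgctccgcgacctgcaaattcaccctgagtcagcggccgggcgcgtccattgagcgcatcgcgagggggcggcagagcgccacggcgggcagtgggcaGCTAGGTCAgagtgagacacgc
Txnrd1: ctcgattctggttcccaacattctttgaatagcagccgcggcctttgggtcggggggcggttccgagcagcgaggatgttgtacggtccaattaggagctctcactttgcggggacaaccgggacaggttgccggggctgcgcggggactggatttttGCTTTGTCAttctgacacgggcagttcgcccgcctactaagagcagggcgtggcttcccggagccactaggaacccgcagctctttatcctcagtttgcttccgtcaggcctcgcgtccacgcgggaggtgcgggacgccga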

How the data were processed

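RNA-seq of liver, muscle and cortex was read from the deposited table of raw read counts per gene, which the authors made by aligning reads to GRCm39/mm39 with HISAT2 and counting them with featureCounts, without normalization. The strand setting and the handling of reads that fit several genes are not given in the sources used here. The deposited table also gives, as its other value, the length of each gene model in bases, by which CPM was divided where genes were compared. CPM is counts per 1000000 counts of a library. Libraries had 26097314 to 49838004 counts, and counting error is largest at the lowest count of the 10 genes, 98.

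Libraries were grouped by the labels' tissue, sex and diet, with mice 1 to 8 and 25 to 32 on AL and 9 to 16 and 33 to 40 on IF. Each tissue and sex was fitted alone with edgeR 4.0.16 in R 4.3.3 (TMM, robust quasi-likelihood test, expression filter with a minimum count of 10 and a minimum total of 15), with Benjamini-Hochberg adjustment over all genes tested and a call at an adjusted p under 0.05. Sex by diet interactions were fitted per tissue, and tissue by diet interactions per sex with the mouse number as a block, taking libraries of 1 number as 1 animal. Marker lists were scored as mean log2(CPM + 1), and IF was compared with AL by a two-sided exact permutation test over libraries, with adjustment over 66 tests. The permutation test was tested on simulated data. Tables and figures were made in Python 3.11.15 with pandas 2.3.3, NumPy 2.4.6 and matplotlib 3.10.9.

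Alternatives were RLE scaling, DESeq2 1.42.0 with adjusted and with unadjusted p, no filter, at least 10 counts in every library, the replicate number as a block, the omitted library included, males without AL mouse 2 and IF mouse 10 (absent from the study's proteome tables), the erythrocyte score as a covariate, no mouse block in the tissue test, and log2 of summed marker CPM. Further left-out mice and marker covariates were chosen after seeing the data. The 10 genes and all lists were chosen with earlier results of these data known. All 10 genes are named in every tissue and sex. Of the other lists up to 2 genes per tissue were to be named, those called in the same direction in both sexes with the largest mean change, and none met this. The cortex library of AL mouse 1 was left out because its sex genes go against its label. All 8 mice were used, since which 7 the study took for RNA is not in the sources used here.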

Additional observations from a re-analysis of the deposited data

Results flagged for a closer look

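Single libraries stood apart in 6 of the 120 groups of 1 gene, tissue, sex and diet, by the gap of the highest or lowest mouse to its nearest neighbour. Chance flags about 1 in 20 groups, which is 6 of 120. In female AL liver, Hmox1 was 44.0 CPM in mouse 28 and 19.4 in the next mouse. In female AL muscle, Srxn1 was 33.1 CPM in mouse 28 and 24.6 in the next. Cat in muscle reached 146 CPM in male IF mouse 12 (next 103) and 116 CPM in female IF mouse 36 (next 79.2). The lowest values apart were Srxn1 in the cortex of female IF mouse 36, with 74.5 CPM beside 89.9, and Sod2 in the muscle of male IF mouse 9, with 236 CPM beside 270.1.

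The log2 diet response differed between the sexes in liver and muscle by edgeR's interaction test. As female minus male, the difference in liver was 0.79 for Cat, 0.81 for Gclc, 0.42 for Gclm, 0.67 for Srxn1, 0.53 for Txnrd1 and -1.67 for Hmox1. The call of Gclm was lost in 3 of its 6 fits (adjusted p up to 0.106). In muscle it was -1.07 for Cat, -0.58 for Gclc and -0.72 for Nfe2l2. Hours of fasting, strain, age and timing of the females are not in the sources used here. Sex therefore cannot be told apart from any difference in these.

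In males the response differed among the tissues for Cat (adjusted p = 5.73e-09), Gclc (1.96e-08), Txnrd1 (4.59e-06), Srxn1 (5.98e-06), Nfe2l2 (0.000108), Gclm (0.000128) and Hmox1 (0.000282). The omitted cortex library, labelled male AL mouse 1, had 213 CPM of Xist, above the 0.612 CPM of the highest other male library.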

How the results depend on the processing

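Of the values of the 10 genes in the diet and sex-difference tests under the alternatives, 687 kept their direction and their side of the threshold, 10 fell short of it, 9 newly passed it and 14 changed sign. All 14 were uncalled before and after, and a value that rounds to 0.00 was given no direction. Of the counts and marker scores, 181 held, 20 rose past the limit or by over 1.5 times, 12 fell likewise and 7 marker scores, all uncalled, changed sign. Where no cause is given it was not tested. Depth limits most the genes with the lowest counts, such as Nqo1 in cortex with 98.

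In male liver the erythrocyte covariate left 4013 genes and 4 of the 10 called. Sod2 there was also lost with no filter (adjusted p = 0.0543). DESeq2 called 4 genes in female liver, 82 in female muscle, 2187 in male cortex, 61 in female cortex and 1 of the 10 in male cortex. With an unadjusted p, which by its construction passes more genes, DESeq2 passed 1307 genes in female liver, 5926 in male muscle, 2002 in female muscle, 5085 in male cortex with 1 of the 10, and 2510.0 in female cortex with 1 of the 10. Sod1 passed in male liver with an unadjusted p of 0.0428. Female muscle had 5 genes called with no filter and 0 without AL mice 28 and 29. Male cortex had 498 called without AL mouse 2 and IF mouse 10 and 294 with the omitted library, against 1332. Female cortex had 0 with the erythrocyte covariate, 254 without AL mouse 26, 1 without IF mouse 36 and 1193 without both, the last with 1 of the 10. The sex difference in muscle was called for 5 of the 10 with at least 10 counts in every library, beside 19.3% of all genes tested, and that in cortex for 81 genes with the omitted library, against 397. The tissue difference in females had 14 genes with no mouse block. In males that test kept its 7 calls among the 10 under 3 alternatives, with Sod2 newly passing under RLE scaling only (adjusted p = 0.0493). As log2 of summed CPM, the myofibre list was at -0.0364 in male muscle and -0.22 in female cortex and was no longer called, whereas the neuron list at 0.54 in male liver and the adipocyte list at 2.69 in male muscle were.

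The sign changes were these, as log2 fold changes. In male liver, Nfe2l2 went from -0.02 to 0.02 without IF mice 9, 10 and 16 and to 0.04 with the macrophage covariate, and Nqo1 from 0.25 to -0.01 with the erythrocyte covariate. Gclm in female liver went from -0.01 to 0.02 without AL mouse 28 and IF mouse 34. In male muscle, Sod1 went from 0.10 to -0.01 without IF mice 9, 10 and 12 and to -0.09 with the adipocyte covariate, and Sod2 from -0.01 to 0.01 without AL mouse 2 and IF mouse 10. Without AL mice 28 and 29, Srxn1 in female muscle went from -0.06 to 0.01 and Sod1 from 0.02 to -0.02. In female cortex, Nqo1 went from 0.08 to -0.04 without IF mouse 36 and to -0.01 without AL mouse 26 as well, where Srxn1 went from -0.03 to 0.02. The sex difference of Nqo1 in liver went from -0.05 to 0.11 without male IF mice 9, 10 and 16, and that of Sod1 in muscle from -0.06 to 0.04 without male IF mice 9, 10 and 12. As log2 of summed CPM, the myofibre score in male cortex went to -0.180, the neuron score to -0.0628 in female liver, 0.00364 in male muscle and 0.00488 in male cortex, the oligodendrocyte score in male liver to -0.338, and in female liver the erythrocyte score to 0.0985 and the neutrophil score to 0.00368.

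The replicate number of the labels was also fitted as a block. AL and IF libraries share only a number: their residuals correlated above 0.1 in 13 of 47 pairs (-0.393 to 0.454), and only 7 of 47 AL libraries were most like the IF library of their own number, so the pairing had no support. With the block 382 genes were called in male cortex and 0 in female cortex, the adjusted p of the sex difference was 0.0705 for Gclm in liver, and that of Txnrd1 in muscle was 0.018.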

Other observations

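In the omitted cortex library of AL mouse 1, 6 of the 10 genes lay within the range of the 7 other male AL cortices. Hmox1 at 7.26 CPM lay above their highest value of 6.07, and Sod2 at 151 lay above 150.3. Gclc at 28.95 CPM lay below their lowest value of 32.1, and Txnrd1 at 37.9 lay below 41.2. Against that of female IF mouse 40, its nearest cortex library, the chi-square per gene was 4.13. For the nearest pairs of the other libraries within a tissue it was 7.43 to 106. The values describe 1 library and were not tested.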
